A study of Mus musculus with 5 samples.

Results

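The peroxisome proliferator-activated receptors (PPARs), their partner RXR alpha and the co-regulators that work with them are described here by the RNA of 10 genes. The genes were chosen by symbol: the receptors Ppara, Ppard, Pparg and Rxra, the coactivators Ppargc1a, Ppargc1b, Ncoa1 and Med1, and the corepressors Ncor1 and Nrip1. Each had 1 row among the 13966 genes of the deposited table. RNA came from hepatocytes, the main cells of the liver, of ICR mice, an outbred stock. The animals carried a fluorescent chemical probe that reports fatty acid oxidation (FAO), and flow sorting parted the cells by FAO activity. The 5 groups are an FAO-negative and an FAO-positive gate without bezafibrate, called control here, and a negative, a positive and a high-positive gate with bezafibrate, a drug that activates PPARs. All 5 share the strain, the probe and the sort. Each group has 1 library, so differences have no replicate check and hold for these libraries alone. The sources used here do not give the number, sex or age of the mice, how and at what dose bezafibrate was given, or whether gates shared a liver. Treatment and mouse cannot be told apart.

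PPARs are nuclear receptors that are switched on by fatty acids and by fibrate drugs. Each binds DNA as a pair with RXR, at repeats of a short half-site in the control regions of its target genes. Without a ligand, corepressor complexes can be held at the receptor. With a ligand, coactivators dock on it, modify chromatin and link it to the transcription machinery through the Mediator complex. In liver, PPAR alpha is best known for control of fatty acid oxidation and of the response to fasting.

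Recovered depth lay between 5056884 and 7146578 reads per library. Values below are normalised read counts as deposited, in which 1 read is worth 0.133 to 0.216. Ribosomal precursor RNA (Rn45s) took 34.8% and 36.3% of reads in the control libraries and 10.5% to 18.5% in the bezafibrate libraries. The hepatocyte marker albumin (Alb) had 24303 and 23064 in control negative and positive. It had 72188, 48208.5 and 54530 in bezafibrate negative, positive and high. Of the other hepatocyte markers, Ttr, Serpina1a and Asgr1 were also higher in each bezafibrate library than in both control libraries. Hnf4a (1032 and 1008 in control, 637.7 to 694.7 in bezafibrate) and Tat (2178 and 2099 in control, 1811 to 1843 in bezafibrate) were lower. Apoa1 and Cps1 overlapped between the treatments. Summed markers of Kupffer cells and macrophages reached at most 9.59, of sinusoidal endothelium 36.8 and of cholangiocytes 51.7. Stellate cell markers summed to 104.1 and 113.2 in control and to 31.4 to 42.0 in bezafibrate libraries, of which Reln alone held 93.4 and 105.8 in control and 28.5 to 29.8 in bezafibrate.

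Promoter sequence is shown for the 4 members outside the 1.5-fold limit in both gates (defined below) for which a window was taken. The windows are the 250 bases before the annotated start, from RefSeq for GRCm38.p6, 5′ to 3′ on the strand of the gene. Windows were taken for 9 of the 10 members. The window and position of Ppargc1b, which also passed the limit in both gates, are not reported here. The window used is the nearest to the start of the longest coding transcript. Capitals mark matches, on either strand, to 5 motifs: the GC box GGGCGG, the CCAAT box CCAAT, the NRF1 site GCGCATGCG, the cAMP response half-site TGACG and the receptor half-site AGGTCA.
Ppara, chr15:85735526-85735775, plus strand: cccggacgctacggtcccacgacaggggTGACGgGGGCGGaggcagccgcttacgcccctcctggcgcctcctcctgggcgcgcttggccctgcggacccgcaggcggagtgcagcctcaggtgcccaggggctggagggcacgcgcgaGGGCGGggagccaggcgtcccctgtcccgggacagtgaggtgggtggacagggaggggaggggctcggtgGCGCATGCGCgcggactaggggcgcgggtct
Ppard, chr17:28232504-28232753, plus strand: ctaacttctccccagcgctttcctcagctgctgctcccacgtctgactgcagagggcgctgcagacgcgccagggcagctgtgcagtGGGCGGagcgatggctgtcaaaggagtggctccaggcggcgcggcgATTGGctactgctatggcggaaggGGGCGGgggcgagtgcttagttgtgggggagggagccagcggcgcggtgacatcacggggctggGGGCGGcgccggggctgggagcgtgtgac
Ppargc1a, chr5:51567726-51567975, minus strand: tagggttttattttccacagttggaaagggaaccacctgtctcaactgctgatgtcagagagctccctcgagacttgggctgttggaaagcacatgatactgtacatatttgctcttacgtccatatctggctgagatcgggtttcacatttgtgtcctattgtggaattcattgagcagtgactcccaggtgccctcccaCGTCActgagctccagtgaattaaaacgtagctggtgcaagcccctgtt
Nrip1, chr16:76373828-76374077, minus strand: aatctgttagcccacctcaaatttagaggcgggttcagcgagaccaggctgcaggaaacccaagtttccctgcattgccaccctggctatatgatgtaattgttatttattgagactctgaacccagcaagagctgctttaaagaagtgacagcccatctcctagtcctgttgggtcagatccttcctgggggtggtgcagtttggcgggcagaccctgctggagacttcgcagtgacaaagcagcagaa
The Ppara window holds 76.4% G and C, against a median of 52.4% over 32851 promoter windows. It carries 2 GC boxes and 2 overlapping matches to the NRF1 site, at 31 and 30 bases before the start. The NRF1 site occurred in 1.45% of all windows of this length and the GC box in 32.7%. Ppard, at 69.6% G and C, carries 3 GC boxes and 1 CCAAT box, which 33.8% of all windows hold. The Ppargc1a window, at 48.0%, has 1 cAMP response half-site (17.8% of all windows); it lies before a start that is 13803 bases from that of the longest coding transcript. The Nrip1 window, at 51.2%, has no match to the 5 motifs. The direct repeat bound by PPAR and RXR, AGGTCANAGGTCA, had no match in the 9 member windows and was present in 0.0335% of all windows. Of the 9 windows, 1 held the single half-site, that of Pparg (14.0% of all windows), and 7 held a GC box. The cAMP response element TGACGTCA (1.55% of all windows), the E-box CACGTG (6.02%) and the TATA box TATAAA (12.4%) had no match in the 9. The half-sites AGGTCA and TGACG lie within the longer motifs AGGTCANAGGTCA and TGACGTCA and were counted there too. A match describes letters, not binding, and the absence of one says nothing about a factor.

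Among the receptors, Ppara was higher in all 3 bezafibrate libraries than in both control libraries, Ppard and Pparg were lower, and Rxra lay between 412.9 and 449.9 throughout. Ppara encodes PPAR alpha, the main fibrate receptor of hepatocytes (chromosome 15, 85734983 to 85802819). It had 284.4 in control negative and 289.3 in control positive. In bezafibrate negative, positive and high it had 608.6, 657.9 and 655.8. The 2 control libraries lay close together and below the 3 bezafibrate libraries, with no overlap. A lack of overlap was common: of the 8973 genes analysed, 35.7% had all 3 bezafibrate libraries above both control libraries, and 33.8% below. For Ppara the ratio of bezafibrate to control was 2.14 in the negative gate (95% counting interval 2.02 to 2.27). In the positive gate it was 2.27 (2.14 to 2.42). Intervals here are exact Clopper-Pearson intervals on 1342 to 4922 recovered Ppara reads per library. Only counting error is in them. They can be too narrow even for that, since reads that carry no molecular identifier can repeat a molecule.

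**Figure D1:**
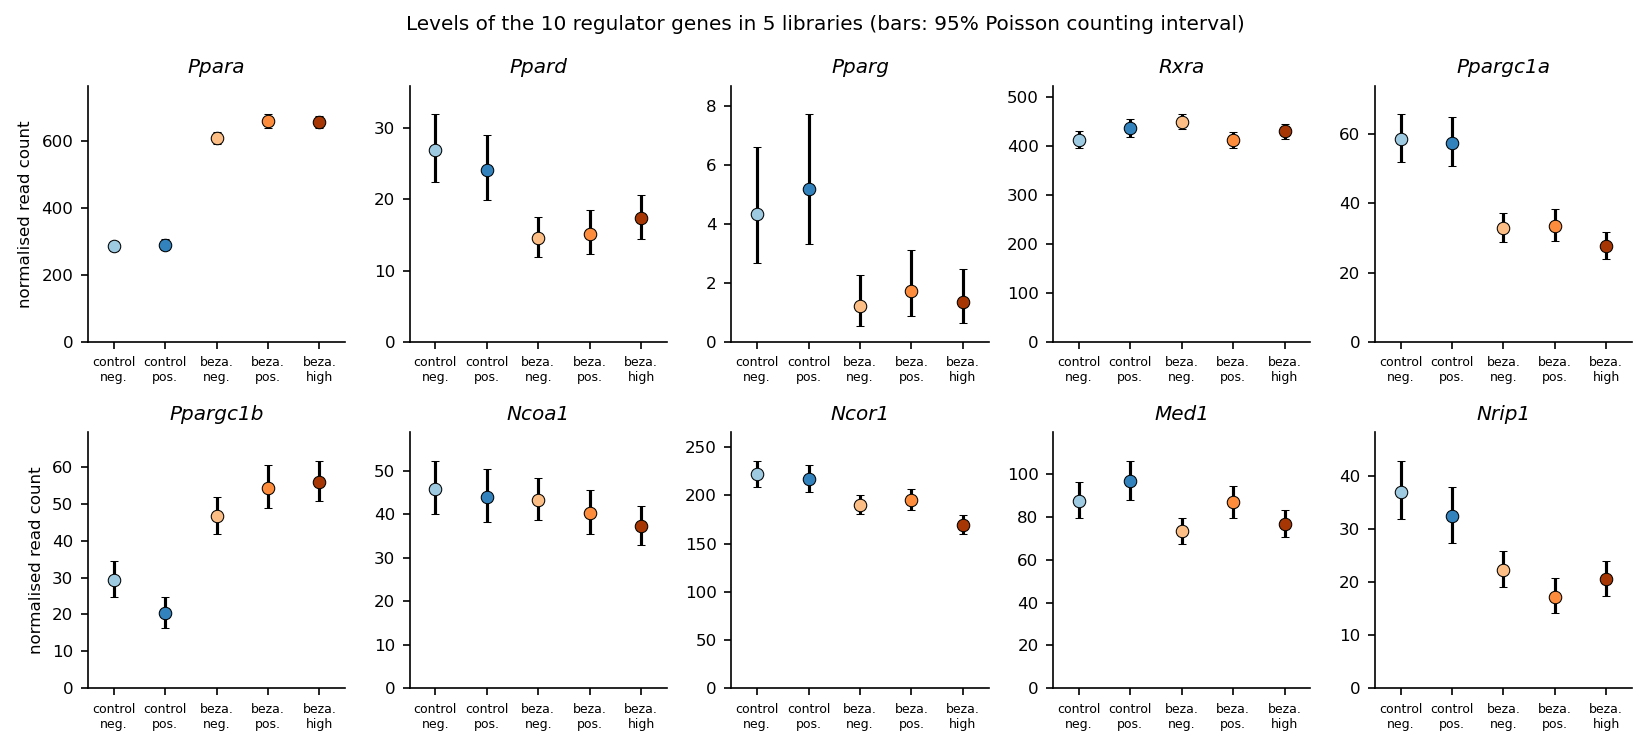
Normalised read counts (y axes, each from 0) of the 10 genes in the 5 libraries (x axes), 1 point per library, with 95% Poisson counting intervals as bars. Ppara and Ppargc1b sit higher in the 3 bezafibrate libraries, Ppard, Pparg, Ppargc1a and Nrip1 sit lower, and Rxra stays between 412.9 and 449.9.

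Ppard encodes PPAR delta, the broadly expressed member of the family (chromosome 17, 28232700 to 28301474). Its values were 26.9 and 24.1 in control negative and positive, and 14.5, 15.1 and 17.3 in bezafibrate negative, positive and high. The groups did not overlap, and each library held 96 to 131 reads of it. The ratio was 0.540 in the negative gate (0.415 to 0.702) and 0.627 in the positive gate (0.472 to 0.831).

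Pparg encodes PPAR gamma, which is best known from adipocytes and macrophages (chromosome 6, 115360951 to 115490399). It had 4.31 and 5.17 in the control libraries and 1.20, 1.73 and 1.33 in bezafibrate negative, positive and high, which are 21, 24, 9, 11 and 10 reads. All 3 bezafibrate libraries were below both control libraries. The ratios were 0.278 (0.112 to 0.634) and 0.335 (0.148 to 0.711) in the negative and positive gates. Its mean of 2.75 is below the minimum of 5.02 used for counts of genes, so it is in none of the counts over 9 members. Beside it, the 2 of 5 adipocyte markers with a row, Fabp4 and Cfd, summed to at most 1.42. The 5 of 9 macrophage markers with a row summed to 5.20 to 9.59. The sum of the stellate markers ran lower in bezafibrate, mostly through Reln as given above, and not each of these markers was lower. The part of these cell types in the Pparg values was not tested. In bulk samples fewer cells of a type and less RNA per cell cannot be told apart.

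Rxra encodes RXR alpha, the main RXR of liver (chromosome 2, 27676440 to 27762957). It had 413.9 and 437.2 in control negative and positive, and 449.9, 412.9 and 430.5 in bezafibrate negative, positive and high. The groups overlapped. The log2 range of Rxra over the 5 libraries was 0.12, and 0.791% of the 8973 genes analysed had a smaller one. The ratio of bezafibrate to control was 1.09 (1.03 to 1.15) in the negative gate and 0.945 (0.891 to 1.001) in the positive gate. Scaled by column totals without Rn45s, the first turned to a log2 difference of -0.14, and scaled by column totals the second turned to 0.12.

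Per length of the longest transcript, Ppara made up 90.0% and 90.5% of the summed level of the 3 PPAR genes in control negative and positive. Its share was 97.6%, 97.5% and 97.3% in bezafibrate negative, positive and high. The share of Ppard was 7.80% and 6.92% in control and 2.05% to 2.35% in bezafibrate, and that of Pparg was 2.60% or less in each library. The summed level per kilobase was 92.6 and 93.7 in control and 182.8 to 197.6 in bezafibrate.

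Of the 2 PGC-1 coactivators, Ppargc1a was lower and Ppargc1b higher in the bezafibrate libraries. PGC-1 alpha, from Ppargc1a (chromosome 5, 51454250 to 51567726), is induced in liver by fasting and drives gluconeogenesis and mitochondrial genes. Its values were 58.5 and 57.6 in control negative and positive, and 32.9, 33.6 and 27.7 in bezafibrate negative, positive and high. The 2 control values were almost alike, and no bezafibrate value reached them. The ratios were 0.563 (0.473 to 0.670) in the negative gate and 0.583 (0.485 to 0.701) in the positive gate.

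PGC-1 beta, from Ppargc1b, is a close relative that is known to act on mitochondrial and lipid genes. It had 29.4 in control negative and 20.3 in control positive, from 143 and 94 reads. In bezafibrate negative, positive and high it had 46.7, 54.4 and 56.0, from 350, 345 and 420 reads. The lowest value was that of control positive and the groups did not overlap. The ratio was 1.59 in the negative gate (1.30 to 1.94) and 2.68 in the positive gate (2.13 to 3.41). The second is 1.69 times the first, with a counting interval of 1.25 to 2.28 (log-normal approximation).

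Within a library, a ratio of 2 genes does not depend on the scaling. The reads of Ppargc1b per read of Ppargc1a were 0.502 (0.408 to 0.616) and 0.352 (0.275 to 0.447) in control negative and positive. In the bezafibrate libraries they were 1.42 (1.20 to 1.67) for negative, 1.62 (1.36 to 1.93) for positive and 2.02 (1.71 to 2.40) for high. No control interval met a bezafibrate interval. Per transcript length the ratio was 0.887 and 0.622 in control and 2.51, 2.86 and 3.57 in bezafibrate negative, positive and high. By these point values the order of the 2 levels was opposite in the 2 treatments. No counting interval was computed for the ratios per length, and that of control negative is near 1. The reads of Ppara per read of Rxra were 0.687 and 0.662 in control negative and positive, and 1.35, 1.59 and 1.52 in bezafibrate negative, positive and high. Per length these ratios were 0.987, 0.951, 1.94, 2.29 and 2.19 in the same order. These pairs of genes were chosen after their values were seen.

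**Figure D2:**
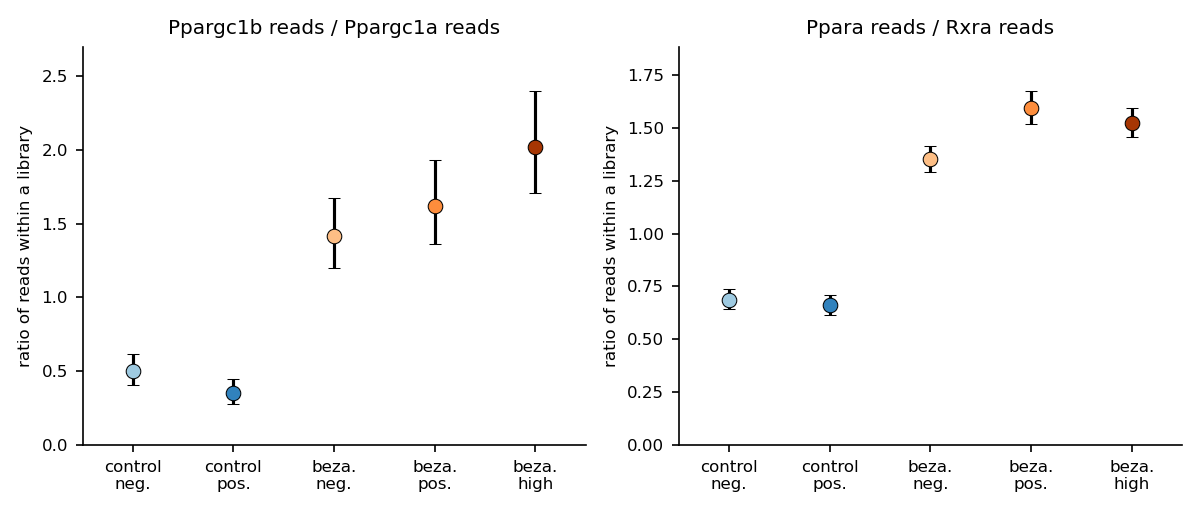
Ratio of the reads of 2 genes within each library (y axes, from 0; no unit) for the 5 libraries (x axes), with 95% Clopper-Pearson counting intervals as bars. Both ratios lie below 0.75 in the 2 control libraries and above 1.25 in the 3 bezafibrate libraries.

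The third gene of the PGC-1 family, Pprc1, belongs to the list of other coactivators below and is named after its value was seen. It had 77.6 and 76.5 in control negative and positive, and 26.5, 27.6 and 26.4 in bezafibrate negative, positive and high. The ratios were 0.342 (0.286 to 0.407) and 0.360 (0.299 to 0.433). The family thus held 2 genes that were lower and 1 that was higher in bezafibrate. Of the 8973 genes analysed, 33.8% had all 3 bezafibrate libraries below both control libraries, and 35.7% had all 3 above. So few genes cannot be read against these shares.

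The other 2 coactivators stayed within 1.5-fold. Ncoa1 encodes SRC-1, a p160 coactivator that recruits histone acetyltransferases (chromosome 12, 4247362 to 4477182). Its values were 45.8, 44.0, 43.3, 40.2 and 37.2 in control negative and positive and bezafibrate negative, positive and high. The ratios were 0.946 (0.796 to 1.13) and 0.914 (0.757 to 1.10), and both intervals take in 1. Scaled by column totals, the log2 differences of Ncoa1 turned to 0.15 and 0.07. Its exons overlap the antisense gene 4921501I09Rik, and strand use in the counting is unknown here. Med1 encodes the Mediator subunit that docks on nuclear receptors (chromosome 11, 98152154 to 98193293). It had 87.7 and 96.8 in control negative and positive, and 73.3, 86.8 and 76.7 in bezafibrate negative, positive and high. The highest bezafibrate value fell just short of the lower control value. The ratios were 0.836 (0.736 to 0.951) in the negative gate and 0.897 (0.791 to 1.02) in the positive gate, which turned to a log2 difference of 0.05 when scaled by column totals.

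Of the corepressors, Nrip1 was lower in the bezafibrate libraries and Ncor1 was lower by less than 1.5-fold. Nrip1 encodes RIP140, a ligand-dependent corepressor of nuclear receptors and of oxidative metabolism (chromosome 16, 76287400 to 76373827). Its values were 37.0 and 32.3 in control negative and positive, and 22.3, 17.2 and 20.5 in bezafibrate negative, positive and high. All 3 bezafibrate libraries were below both control libraries. The ratios were 0.602 (0.485 to 0.748) and 0.531 (0.411 to 0.684).

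Ncor1 encodes the corepressor that brings histone deacetylase 3 to receptors without ligand (chromosome 11, 62316426 to 62458541). It had 221.9 and 217.1 in control negative and positive, and 190.4, 195.0 and 169.5 in bezafibrate negative, positive and high. The ratios were 0.858 (0.792 to 0.929) and 0.898 (0.826 to 0.977), and the log2 differences turned to 0.01 and 0.05 when scaled by column totals. Its exons overlap those of Pigl and Ttc19 on the other strand, and its level is uncertain to that extent. The reads of Ncor1 per read of Ncoa1 were 4.85 and 4.94 in control and 4.39 to 4.85 in bezafibrate. The counting intervals of this ratio overlapped in all 5 libraries. The other ratio of a corepressor to a coactivator that was computed, reads of Nrip1 per read of Med1, was 0.422 (0.352 to 0.503) and 0.334 (0.276 to 0.403) in control negative and positive. It was 0.304 (0.254 to 0.362) in the bezafibrate negative library, 0.198 (0.160 to 0.243) in the positive and 0.267 (0.222 to 0.320) in the high one. All 3 bezafibrate ratios were below both control ratios, and the intervals overlapped between some of these libraries and not others.

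**Figure D3:**
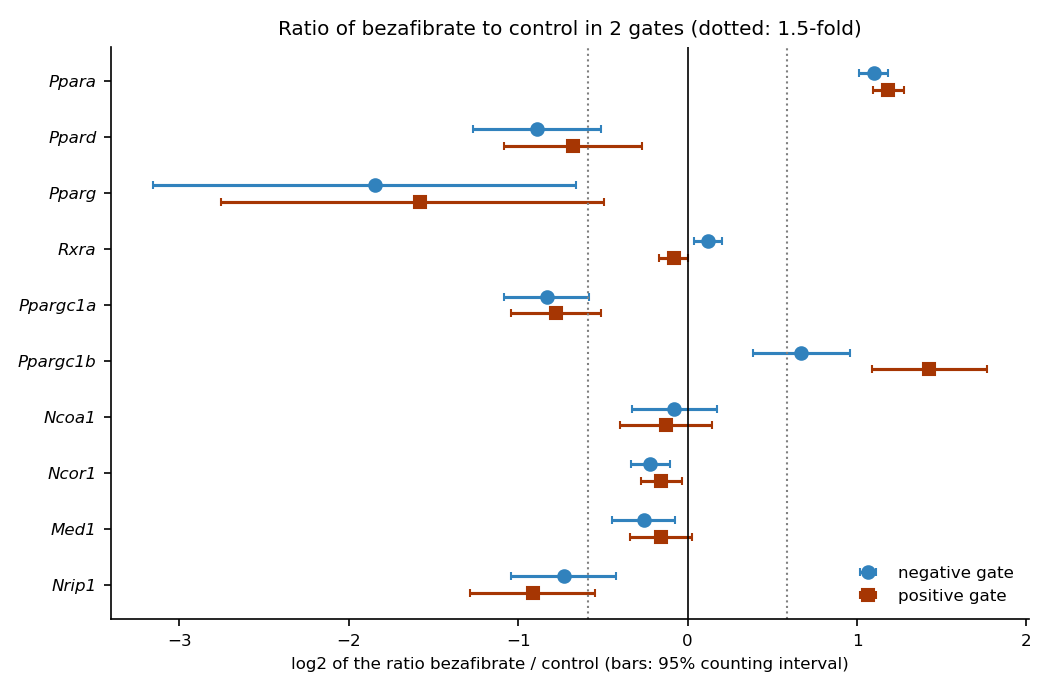
Log2 of the plain ratio of bezafibrate to control (x axis) for the 10 genes (y axis) in the negative gate (circles) and the positive gate (squares), with 95% counting intervals as bars and dotted lines at 1.5-fold. Ppara and Ppargc1b lie to the right in both gates, and Ppard, Pparg, Ppargc1a and Nrip1 to the left.

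To read these values against all genes, differences were taken as log2(value + 1.0035), a scale that understates differences of low genes, over the 8973 genes with a mean of at least 5.02. Of the 10 members, 9 passed. A gene was counted when it differed by at least 1.5-fold on this scale. In the negative gate 2 of 9 members were counted as higher, where 22.6% of all genes were, and 3 as lower, where 17.5% were. In the positive gate 2 were higher (15.7% of all genes) and 3 lower (11.6%). They were the same genes in both gates: Ppara and Ppargc1b higher, Ppard, Ppargc1a and Nrip1 lower. The count of higher members is near the background, and 9 genes are too few to read the count of lower ones against it. The median difference of the 9 was -0.22 in the negative and -0.15 in the positive gate, against 0.02 and 0.00 over all genes. Scaled by column totals, the members' medians turned to 0.01 and 0.05, against 0.25 and 0.20 over all genes.

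**Figure D4:**
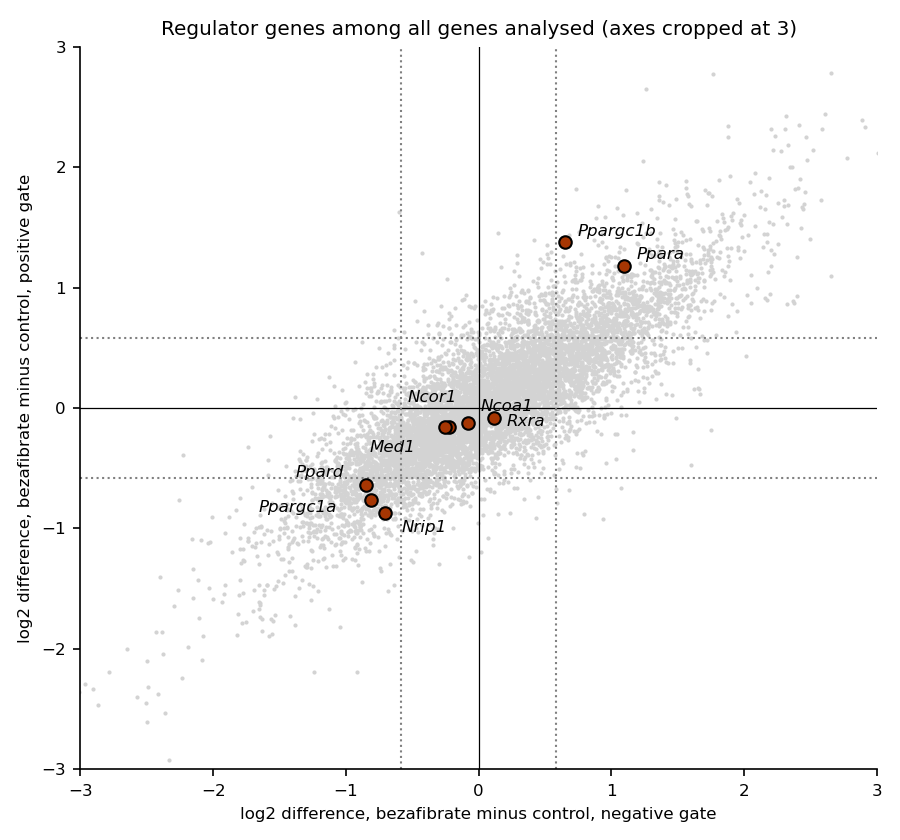
Log2 difference between bezafibrate and control in the negative gate (x axis) and the positive gate (y axis) for 8973 genes (grey) and the 9 regulator genes past the filter (labelled); dotted lines mark 1.5-fold, and 29 genes lie outside the axes. Among the 9 genes, Ppargc1b lies at 0.65 and 1.38, and Ppara at 1.10 and 1.18. Over the 5 libraries, 92.5% of all genes had a smaller log2 range than Ppargc1b, and 87.2% a smaller one than Ppara.

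The calls depended on the scaling. Scaled by column totals, the median of all genes moved by 0.22 in the negative and 0.20 in the positive gate. The share of higher among counted genes then went from 56.3% to 75.5% and from 57.5% to 81.5%. Scaled by totals without Rn45s, the median moved by -0.24 and -0.11 and the shares were 33.1% and 42.6%. Of the 5 scalings tried, 1 (TMM factors of edgeR) repeats the deposited differences. Another (median-of-ratios factors) moved the median of all genes by only -0.02 in each of the 2 gates. Under the 5 scalings Ppara was higher by 0.84 to 1.33 in the negative and 1.07 to 1.39 in the positive gate, and past 1.5-fold in each. Ppargc1b ranged from 0.40 to 0.88 and from 1.27 to 1.58, and Ppargc1a from -1.06 to -0.58 and from -0.87 to -0.56. Ppard ranged from -1.09 to -0.62 and from -0.75 to -0.44, and Nrip1 from -0.95 to -0.48 and from -0.99 to -0.68. The signs of these 5 held under each scaling. Ppard in the positive gate, Ppargc1a in both gates, and Nrip1 and Ppargc1b in the negative gate did not reach 1.5-fold under at least 1 scaling.

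In 6 of the 9 members (Ppard, Ppargc1a, Ncoa1, Ncor1, Med1 and Nrip1) all 3 bezafibrate libraries were below both control libraries in the deposited values, where 33.8% of all genes were. In 2 (Ppara and Ppargc1b) all 3 were above, where 35.7% of all genes were. A model with 1 term for gate and 1 for treatment (edgeR, 4 libraries), whose error is how far treatment differed between the gates, called the same 5 members that passed 1.5-fold and 45.6% of all genes. It is not a test between replicates. Long transcripts ran lower in bezafibrate: when genes were put in 5 equal classes by transcript length, the median difference in the negative gate ran from 0.39 in class 1 (shortest) to -0.14 in class 5 (longest). Ppargc1a, Ncoa1, Ncor1, Med1 and Nrip1 belong to class 5, Rxra to class 4, and Ppara, Ppard and Ppargc1b to class 3, whose median was 0.00. The part of transcript length in these differences was not tested.

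Between gates of the same treatment the regulators differed less. In control positive against control negative, 0 of 9 members passed 1.5-fold (3.38% of all genes did, in either direction). Ppargc1b had the ratio farthest from 1, 0.690 (0.526 to 0.902), and was the 1 member whose counting interval did not take in 1. Ppara had a ratio of 1.02 (0.943 to 1.10) and Ppargc1a 0.984 (0.829 to 1.17), the latter turning to a log2 difference of 0.01 when scaled by column totals.

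In bezafibrate positive against bezafibrate negative, 0 of 9 passed (4.7% of all genes). Ppara was at 1.08 (1.04 to 1.13), Ppargc1b at 1.17 (1.002 to 1.36), Med1 at 1.18 (1.05 to 1.34), Rxra at 0.918 (0.872 to 0.966) and Nrip1 at 0.772 (0.601 to 0.988). These 5 had intervals that leave out 1, that of Ppargc1b barely. That of Rxra turned to a log2 difference of 0.02 when scaled by column totals without Rn45s, where Rn45s itself was higher in the positive library.

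In bezafibrate high against bezafibrate positive, 0 of 9 passed (1.77% of all genes). Ncor1 had a ratio of 0.869 (0.803 to 0.941) and Med1 of 0.884 (0.785 to 0.995). Ppara was at 0.997 (0.956 to 1.04), which turned to a log2 difference of 0.05 when scaled by column totals, and Ppargc1b at 1.03 (0.890 to 1.19); both intervals take in 1. In bezafibrate high against bezafibrate negative, 0 of 9 passed (3.79% of all genes); Ppargc1b was at 1.20 (1.04 to 1.39), Ppara at 1.08 (1.03 to 1.12) and Ncor1 at 0.890 (0.825 to 0.961). The 3 bezafibrate comparisons share libraries.

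Levels between genes can be compared only per length. Per kilobase of the longest transcript, Ppara had a mean of 146.3 over the 5 libraries and Rxra 87.4. The 2 were alike in control, at 83.3 against 84.4 in the negative and 84.8 against 89.1 in the positive gate, and Ppara was higher in each bezafibrate library. Ncor1 followed at 18.8 to 24.6, with no overlap with its neighbours in the order. Ppargc1b (5.54 to 15.3) overlapped with both Med1 (9.14 to 12.1) and Ppargc1a (4.29 to 9.05), which did not overlap with each other. Overlap was also seen among Ppargc1a, Ncoa1 (5.07 to 6.25) and Ppard (3.90 to 7.22), and of Ppargc1b with Ncoa1 and Ppard. Nrip1 (2.18 to 4.70) overlapped with Ppard, Ppargc1a and Pparg. Pparg was lowest in each library, at 0.565 to 2.43. With the median transcript length in place of the longest, Ppara stayed first and Pparg last, Ncor1 was at rank 2 and Ppargc1b at rank 9.

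The genes most like the 3 most abundant members were taken by the smallest root mean square distance of log2 values, centred on each gene's mean, over the 5 libraries. For Ppara they were Fmo5 at a distance of 0.025, Uqcrfs1 at 0.047 and Tef at 0.048. Fmo5 had 474.9 and 462.0 in control and 985.6, 1098 and 1073 in bezafibrate negative, positive and high. Tef, which encodes a transcription factor with daily rhythm, had 78.0 and 73.7, and then 152.9, 176.7 and 174.8. For Rxra, Braf (0.016), Pebp1 (0.019) and Rpl9 (0.022) were nearest, and for Ncor1, Bace1 (0.017), Zfyve1 (0.018) and Cped1 (0.021).

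The other genes of the pathway were taken in 6 lists. The negative gate had 1 higher and 2 lower by 1.5-fold among 10 RXR and RXR partner receptors past the filter (13 listed); the positive gate had 0 and 2, with a median of -0.27 in both. The shares over all genes were, for the negative gate, 22.6% higher with 17.5% lower, and for the positive gate 15.7% with 11.6%. Nr1i3, the xenobiotic receptor CAR, had 166.1 and 186.5 in control and 62.1, 91.3 and 87.1 in bezafibrate negative, positive and high. Its ratios were 0.374 (0.333 to 0.420) and 0.489 (0.440 to 0.544). Nr1h4, the bile acid receptor FXR, was at 0.985 (0.890 to 1.09) and 0.934 (0.843 to 1.03). Thrb, a thyroid hormone receptor, was at 1.59 (1.36 to 1.87) and 1.44 (1.22 to 1.70).

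Among 15 other coactivators the negative gate had 1 higher and 4 lower and the positive gate 0 and 3, with medians of -0.14 (0.07 when scaled by column totals) and -0.35. All genes had 22.6% higher with 17.5% lower (negative gate) and 15.7% with 11.6% (positive gate). Lpin1, a phosphatidate phosphatase that also works with PGC-1 alpha and PPAR alpha, had 2256 and 2203 in control and 594.9, 754.2 and 719.0 in bezafibrate negative, positive and high. Its ratios were 0.264 (0.255 to 0.273) and 0.342 (0.331 to 0.354). Helz2, a PPAR-binding helicase, was at 0.601 (0.566 to 0.638) and 0.726 (0.682 to 0.773). Kat2b, a histone acetyltransferase, was at 1.71 (1.47 to 1.996) and 1.38 (1.19 to 1.61).

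Among 24 Mediator genes past the filter (31 listed) the negative gate had 1 higher and 5 lower and the positive gate 1 and 2, with medians of -0.12 and -0.15 that turned to 0.09 and 0.03 when scaled by column totals. Beside these counts, all genes had 22.6% higher with 17.5% lower (negative gate) and 15.7% with 11.6% (positive gate). Ccnc, the cyclin of the kinase module, was at 2.64 (1.51 to 4.88) and 2.24 (1.25 to 4.22), from low values of 3.28 and 3.45 in control. Med20 was at 0.356 (0.261 to 0.481) and 0.598 (0.454 to 0.787). Of the abundant kinase-module subunits, Med13 was at 1.34 (1.19 to 1.51) and 1.22 (1.08 to 1.37) and Med12 at 0.675 (0.578 to 0.788) and 0.867 (0.740 to 1.01).

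Among 12 other corepressors past the filter (13 listed) the negative gate had 1 higher and 2 lower and the positive gate 2 and 1, with medians of -0.11 in both that turned to 0.12 and 0.08 when scaled by column totals. The matching shares of all genes were 22.6% with 17.5% (negative gate) and 15.7% with 11.6% (positive gate). Tbl1xr1, a subunit of the NCoR complex, was at 1.69 (1.37 to 2.10) and 1.57 (1.27 to 1.94). Nr0b2, the orphan receptor SHP, was at 0.928 (0.831 to 1.04) and 0.983 (0.875 to 1.11).

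Among 12 transcription factors that work with PGC-1 and are past the filter (14 listed) the negative gate had 4 higher and 3 lower and the positive gate 0 and 1, where all genes had 22.6% and 17.5%, and 15.7% and 11.6%. The median was 0.17 in both, and -0.08 in the negative gate when scaled by column totals without Rn45s. Hnf4a, the hepatocyte receptor that PGC-1 alpha coactivates, had 1032 and 1008 in control and 637.7, 686.2 and 694.7 in bezafibrate negative, positive and high. Its ratios were 0.618 (0.594 to 0.643) and 0.680 (0.653 to 0.709). Esrra, the estrogen-related receptor through which PGC-1 proteins act on mitochondrial genes, was at 0.507 (0.390 to 0.658) and 0.805 (0.608 to 1.07). Nr1d1, the clock repressor REV-ERB alpha, was at 1.29 (1.19 to 1.39) and 1.18 (1.09 to 1.28), and Tfb2m, a mitochondrial transcription factor, at 1.95 (1.26 to 3.10) and 1.48 (0.987 to 2.26).

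Most listed targets of PPAR alpha were higher in bezafibrate in the deposited values. Among 26 targets past the filter (27 listed) the negative gate had 17 higher and 2 lower by 1.5-fold, and the positive gate 15 and 3. Over all genes these shares were 22.6% with 17.5% (negative gate) and 15.7% with 11.6% (positive gate). Their median differences were 0.97 and 0.63, against 0.02 and 0.00 over all genes. Cyp4a14, a fatty acid hydroxylase, was at 7.43 (7.06 to 7.83) and 5.27 (5.003 to 5.55). Ehhadh, a peroxisomal enzyme of fatty acid breakdown, was at 24.9 (22.4 to 27.7) and 14.5 (13.1 to 16.0). Fgf21, a fasting hormone, was lowest, at 0.255 (0.148 to 0.424) and 0.379 (0.233 to 0.603).

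**Figure D5:**
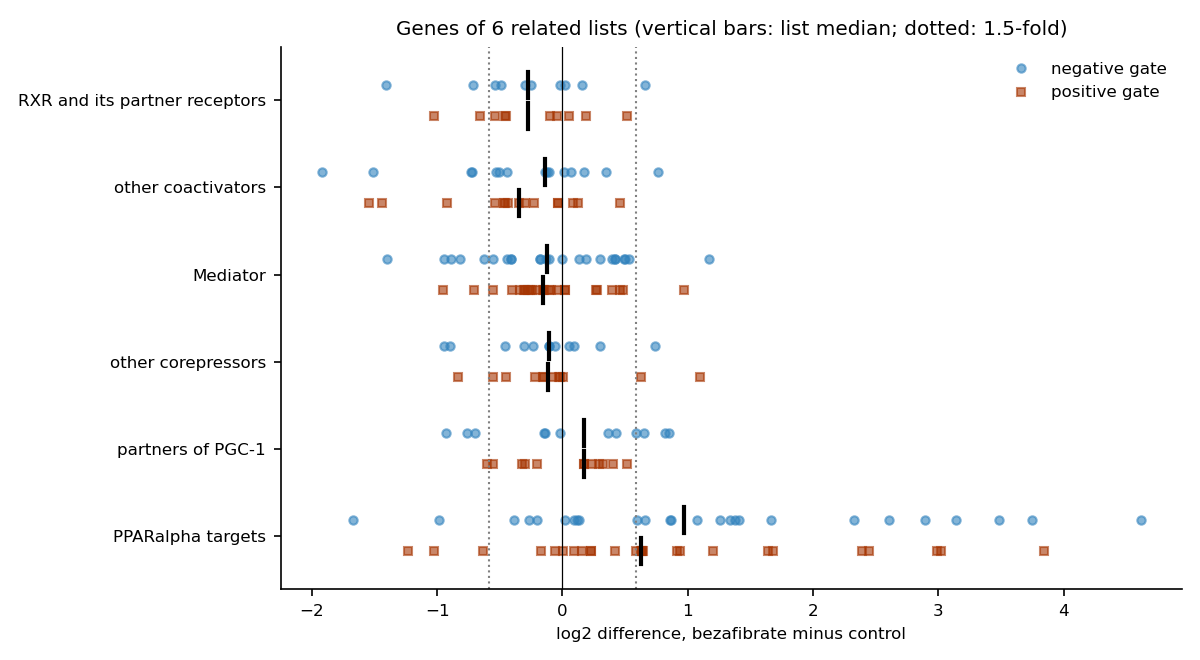
Log2 difference between bezafibrate and control (x axis) for the genes of 6 lists past the filter (y axis), in the negative gate (circles) and the positive gate (squares); black bars are list medians and dotted lines 1.5-fold. The PPAR alpha targets have medians of 0.97 and 0.63, and the other lists have medians between -0.35 and 0.17, some of which change sign with the scaling.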

How the data were processed

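RNA was isolated from sorted hepatocytes, depleted of ribosomal RNA and sequenced as strand-specific read pairs, per the labels' protocols. The submitters' processing notes name build mm10 and the tools Trimmomatic 0.36, RSEM, Bowtie2 and edgeR; their roles, the annotation and strand use in counting are unknown here. The authors deposited 1 table of normalised signal. Each value was a whole number of reads times 1 factor per library, for 100% of values at a tolerance of 0.001 reads, and TMM factors of edgeR on the recovered reads gave the same differences between libraries. Groups were taken from the labels.

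Differences used log2(value + 1.0035), where 1.0035 is a millionth of the mean column total, over genes with a mean of at least 5 such units. Ratios are of deposited values, with Clopper-Pearson 95% intervals from the reads. With 1 library per group no p-value is given. The additive fit used edgeR 4.0.16 in R 4.3.3 with an adjusted threshold of 0.05 and 1 residual degree of freedom. The rest was done in Python 3.11.15 with scipy 1.17.1, pandas 2.3.3 and numpy 2.4.6. GENCODE (GRCm38) gave positions and transcript lengths, RefSeq the promoters. The additive fit was also run on simulated data. The simulation held no differences between gates or between mice, so it does not bear on the error that the real fit uses.

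The members and lists were chosen with earlier results of these data known. Named genes are the 10 members, the 2 most abundant genes of each list and its 1 highest and 1 lowest in the negative gate, and the genes most like the 3 most abundant members; others are said to be chosen after their values were seen. Some genes that this rule names are not reported here. Settings for scaling, pseudocount, filter and fold were also tried.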

Additional observations from a re-analysis of the deposited data

Results flagged for a closer look

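Members whose differences had opposite signs under the same contrast are given here; with 1 library per group, a sign rests on 2 libraries, and the difference was not tested between replicates. Ppargc1b was lower in the positive than in the negative control gate (0.690) and higher in bezafibrate (1.17), a ratio of 1.69 (counting interval 1.25 to 2.28). Rxra was higher in the positive control gate (1.06) and lower in bezafibrate (0.918), a ratio of 0.869 (0.802 to 0.941); the latter sign turned when scaled by column totals without Rn45s. The same 4 libraries give Rxra opposite signs for treatment in the 2 gates, 1.09 and 0.945, with the same ratio of 0.869. These opposite signs did not hold under each scaling. Scaled by column totals, the log2 differences in the negative and positive gates were 0.35 and 0.12. Without Rn45s in the totals they were -0.14 and -0.20. For Ppard the gate ratios were 0.898 and 1.04, for Ppargc1a 0.984 and 1.02, and for Ncor1 0.978 and 1.02. Their ratios of ratios were 1.16 (0.799 to 1.68), 1.04 (0.809 to 1.33) and 1.05 (0.934 to 1.17), and these 3 intervals take in 1. The control signs of Ppargc1a and Ncor1 turned when scaled by column totals. The cause was not tested.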

How the results depend on the processing

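The counts of members past 1.5-fold between bezafibrate and control depended on the scaling and on the fold. Scaled by column totals, the 5 counted members became 3 in the negative gate and 3 in the positive gate, with 1 lower in each, and 2 (Ppara and Ppargc1b) in both gates. Scaled by totals without Rn45s or without the 100 highest genes, 1 in place of 2 was higher in the negative gate. With a fold of 2, 1 was counted in the negative gate (1 higher, 0 lower), 2 in the positive gate (0 lower) and 1, Ppara, in both. These changes follow from the shift of all genes given above and from the stricter fold. The other 178 of 191 recomputed counts stayed within 1.5 times, among them all those with other pseudocounts (5 times smaller or larger), filters (none or 20), TMM or median-of-ratios factors. Of the 480 recomputed differences of single members, 455 stayed inside the counting interval and 25 moved beyond it, and 0 of those past 1.5-fold changed sign. Part of these recomputations could not move. TMM factors repeat the deposited differences, and a filter leaves the difference of a kept member unchanged. Counts between gates of the same treatment were 0 to begin with. The 178 and the 455 thus overstate how much was tried. No paired analysis was possible because each group has 1 library and the labels carry no pairing. Leaving out a replicate was likewise not possible. Depth limits Pparg most, at 9 to 24 reads per library.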
